A study of Rattus norvegicus with 6 samples.

Results

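The genes described here encode splicing regulators, the RNA-binding proteins that decide which exons of a pre-mRNA are kept. They were chosen by symbol: SR proteins (Srsf), heterogeneous nuclear ribonucleoproteins (Hnrnp), the polypyrimidine tract binding proteins Ptbp1 to Ptbp3, and the Rbfox, Celf and muscleblind-like (Mbnl) proteins. On the array, 87 probe sets for 42 such genes carried a single gene symbol, out of 20826 single-symbol probe sets for 14217 genes. All 87 were kept, since a gene is read by up to 6 probe sets that can detect different transcripts of it. The SR proteins had 20 probe sets for 11 genes, the hnRNP proteins 31 for 17, the Ptbp proteins 4 for 3, the Rbfox proteins 10 for 3, the Celf proteins 13 for 5 and the Mbnl proteins 9 for 3.

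Primary astrocytes were cultured from the spinal cord of rats, and 6 samples of total RNA were hybridised to 6 Affymetrix Rat Genome 230 2.0 arrays. In the NonTG group, 3 arrays held RNA of astrocytes without the transgene, and in the hSOD1G93A group 3 arrays held RNA of astrocytes from rats with a transgene for the G93A mutant of human superoxide dismutase 1, which causes familial amyotrophic lateral sclerosis (ALS). Cells of both groups were confluent and had spent 24 hours in supplemented L15 medium. The age of the rats and the promoter of the transgene are not given in the sources used here. Each group has an array A, B and C, and whether these stem from different animals or cultures is not stated. The p-values therefore rest on the spread among these arrays alone, and that spread may be technical.

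In vertebrate splicing, SR proteins typically bind enhancers within exons and recruit the U1 and U2 particles of the spliceosome, while many hnRNP proteins bind silencers and keep exons out. Ptbp1 represses neuronal exons in non-neuronal cells and glia, Ptbp2 takes its place in developing neurons, and Rbfox, Celf and Mbnl proteins shift splicing in brain and muscle during development. Astrocytes are known for high Ptbp1 and low Ptbp2 compared with neurons. Hnrnpa1 and Hnrnpa2b1 are human disease genes of the ALS spectrum.

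The astrocyte label was checked against its markers. Of 14 astrocyte markers, 13 were on the array and 12 had a signal above the dim limit explained below. Gjb6 was dim, and Slc1a2 lay just above the limit, at 79.5 to 143 by its brightest probe set. The 12 genes had 19 tested probe sets, 9 higher and 10 lower in hSOD1G93A by their means. Their median log2 difference was -0.04, with a range from -0.79 to 0.47. The brightest were the glial fatty acid binding protein Fabp7 (mean log2 signals of 14.47 for NonTG and 14.38 for hSOD1G93A), the gap junction gene Gja1 (13.96 and 14.01) and the water channel Aqp4 (13.92 and 14.04). Of 14 microglia markers, 2 were above the dim limit. Fibroblast and meningeal markers were bright as well, with Col1a2, a fibrillar collagen chain, at 14.45 and 14.32. Of 14 oligodendrocyte lineage markers, 7 were tested by 10 probe sets, 7 higher and 3 lower in hSOD1G93A by their means. The median log2 difference was 0.22, with 2 at an unadjusted p under 0.05. The brightest were Cnp (11.14 and 10.96), Olig1 (10.76 and 10.89) and Mbp (9.95 and 10.73). Those of smallest p were Ugt8, Mag and Mbp 1387341_a_at, higher by 0.72, 0.63 and 0.86. Sox10, Olig2, Mog, Mobp, Opalin and Cspg4 were dim. With dim genes included, the summed signal of the brightest probe set per oligodendrocyte gene ranged from 5696 to 6304 over the NonTG arrays. Over the hSOD1G93A arrays it ranged from 6153 to 8295. The part of these cells in the members' values was not tested. In these bulk samples, fewer cells of a type and less RNA per cell cannot be told apart.

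Signals are the authors' MAS5 intensities, a linear measure in which every array had been scaled to the same trimmed mean, and they are compared only within a probe set. Probe sets with a mean log2 signal no higher than the 40th percentile, which corresponds to 66.7, were called dim and not tested. This left 72 member probe sets of 37 genes. The 15 others include all probe sets of Celf3, Celf4, Mbnl3, Srsf3 and Srsf7-ps4, a pseudogene entry. Differences are hSOD1G93A minus NonTG in log2 units, from limma fitted on 18625 probe sets and adjusted over all of them.

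No splicing regulator passed the threshold, an adjusted p of 0.05. The smallest adjusted p of limma among the 72 members was 0.9997, and 0% of all probe sets passed. At an unadjusted p under 0.05 there were 6 members (8.33%), against 2.54% of all probe sets: Srsf11, Srsf10, Hnrnpm and Hnrnph3, each by 1 probe set, were higher in hSOD1G93A, and both probe sets of Ptbp3 were lower. That count was 2 without NonTG C and also 2 without hSOD1G93A C, where 1.83% and 1.89% of all probe sets had such a p. The 3 arrays of a group lay wholly to one side of the others for 9 members (12.5%), against 7.51% of all probe sets. Of these, 6 were higher in hSOD1G93A (Srsf11, Srsf10, Hnrnpm, Hnrnpa1 and both of Hnrnph3) and 3 were lower (Ptbp3, Mbnl2 and Celf1). With 2 arrays in 1 group separation is easier. The count was 21 of 72 members without NonTG A, 16 of 72 without NonTG C and 17 of 72 without hSOD1G93A A. The shares over all probe sets were 20%, 14.6% and 22.6%.

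By the group means, 44 of 72 members (61.1%) were higher in hSOD1G93A, against 52% of all probe sets. The median difference over the members was 0.05, with a range from -1.21 to 0.54, and over all probe sets it was 0.01. Without NonTG C the members' median was 0.0002. The SR and hnRNP probe sets were low on that array: the median deviation from a probe set's own mean was -0.17 for SR and -0.11 for hnRNP proteins on NonTG C, against 0.05 and 0.09 on NonTG A. The intervals of the members were narrow, and 57 of 72 (79.2%) had a 95% confidence interval within 1.5-fold in both directions, against 63.6% of all probe sets.

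**Figure D1:**
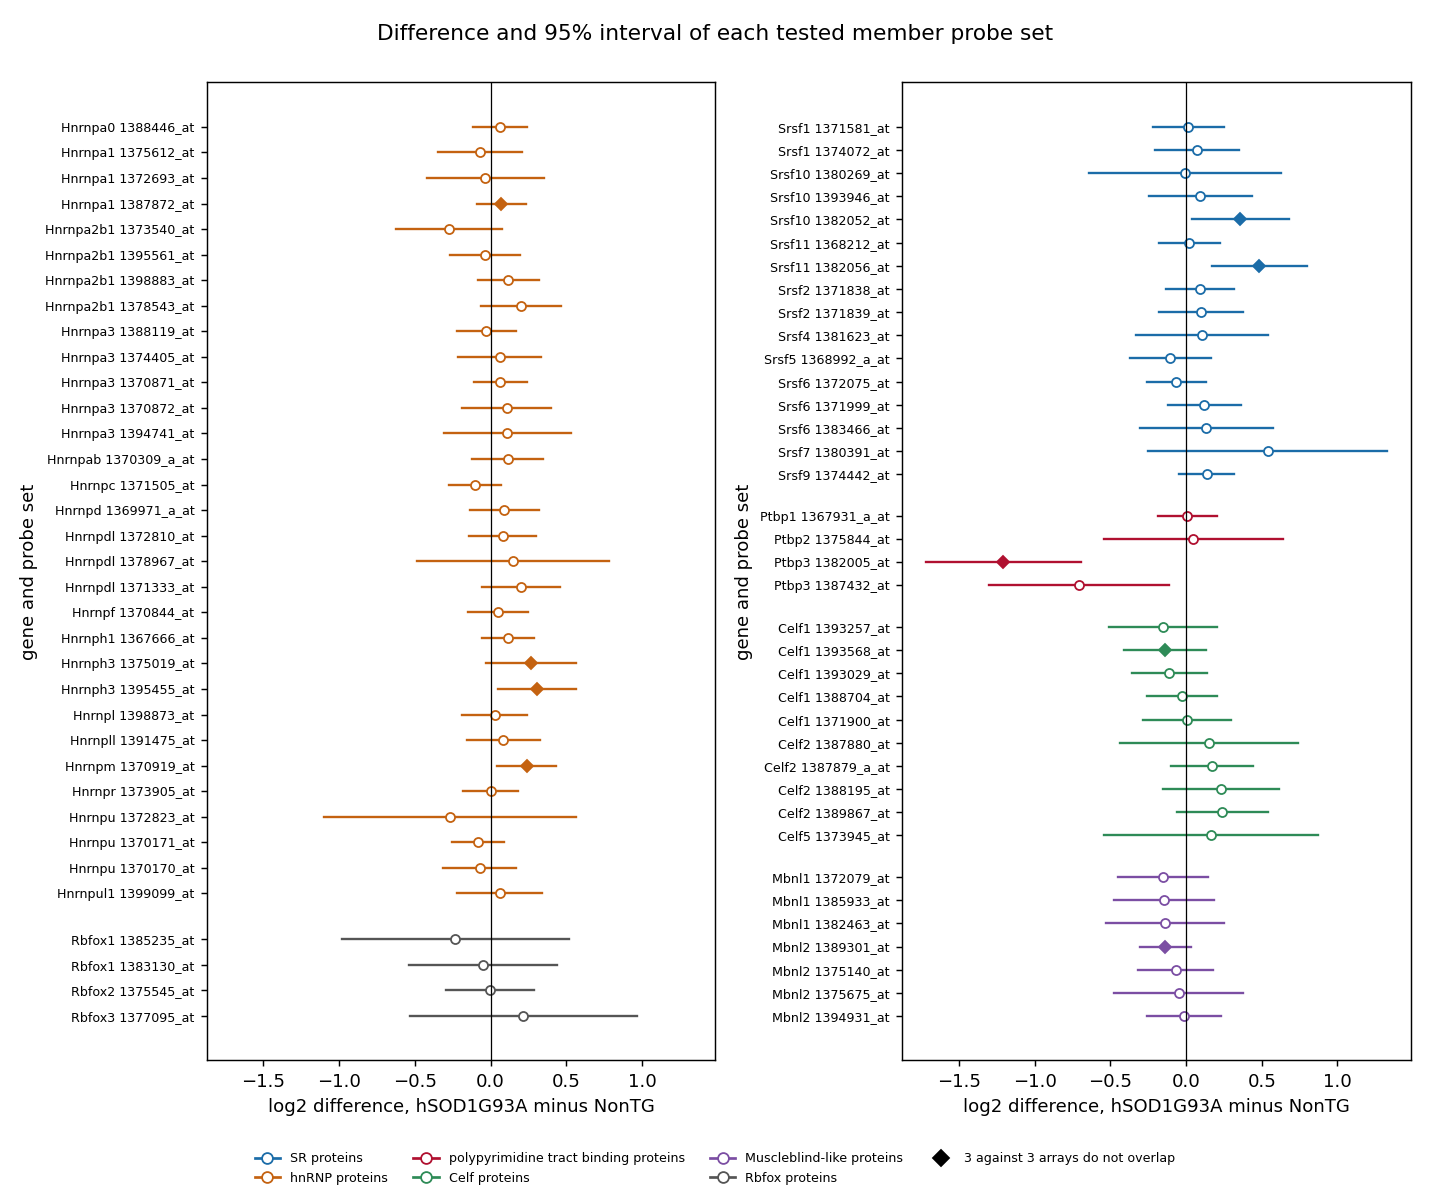
Log2 difference between hSOD1G93A and NonTG for each of the 72 tested probe sets, with its 95% confidence interval from limma (3 arrays per group), by family. Filled diamonds mark the 9 probe sets whose groups do not overlap, and the interval of Ptbp3 1382005_at, from -1.72 to -0.69, lies farthest from 0.

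Ptbp3, a paralogue of Ptbp1 also known as Rod1, had the largest difference among the 72 tested probe sets. Probe set 1382005_at read 1103, 883 and 1114 on the NonTG arrays A, B and C, and 635, 314 and 442 on the hSOD1G93A arrays. Every hSOD1G93A array was below every NonTG array. The difference was -1.21 ± 0.23 (SE, n = 3 per group), a signal 2.31 times higher in NonTG. It was -0.80 between the A arrays, -1.49 between the B arrays and -1.33 between the C arrays, and lay between -1.47 and -0.96 when single arrays were left out. Its adjusted p in limma was 0.9997, and between 0.151 and 1.0 under the alternatives tried.

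The other Ptbp3 probe set, 1387432_at, read 185, 133 and 194 in NonTG and 133, 79.9 and 103 in hSOD1G93A. Its groups overlapped by 1 array each, NonTG B at 133.1 and hSOD1G93A A at 133.5. The difference was -0.71 ± 0.26 (SE, n = 3 per group), with an interval from -1.3 to -0.12 and an adjusted p of 0.9997 in limma. Both Ptbp3 probe sets were lowest on hSOD1G93A B, and without that array their differences were -0.96 and -0.52.

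The other Ptbp genes gave values near 0. Ptbp1, the main repressor of neuronal exons outside neurons, was at 3818, 3770 and 3372 in NonTG and at 3715, 3926 and 3387 in hSOD1G93A. The groups overlapped throughout, and the difference of 0.01 had an interval from -0.19 to 0.21. Ptbp2, the neuronal paralogue, read 112, 159 and 183 in NonTG and 117, 185 and 167 in hSOD1G93A. Its difference of 0.05 was also inside the spread of the arrays, with a wider interval, from -0.54 to 0.64.

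**Figure D2:**
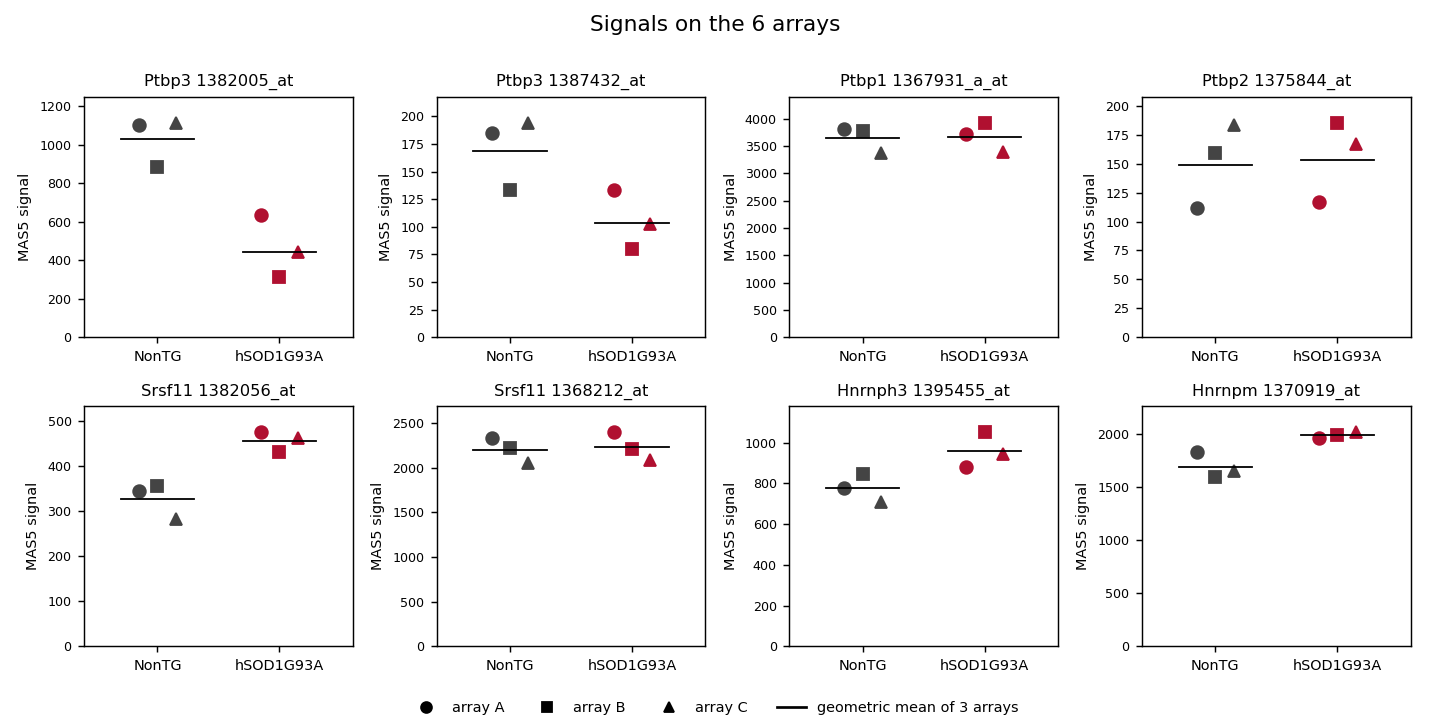
MAS5 signal (linear, axes from 0) of 8 probe sets on the 6 arrays, with the array letter as the symbol and a bar at the geometric mean of each group. Ptbp3 1382005_at is at 883 to 1114 in NonTG and at 314 to 635 in hSOD1G93A, Srsf11 1382056_at is higher on all 3 hSOD1G93A arrays, and Ptbp1 and Srsf11 1368212_at overlap.

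Among the SR proteins, 13 of 16 tested probe sets were higher in hSOD1G93A by their means and 3 were lower, with a median of 0.10 that was 0.01 without NonTG C. Srsf11, also known as SRp54, an SR-related protein that interacts with the U2 auxiliary factor, gave the largest difference among the tested SR probe sets whose groups did not overlap. Probe set 1382056_at read 346, 356 and 283 in NonTG and 476, 433 and 464 in hSOD1G93A, so the lowest hSOD1G93A array stood above the highest NonTG array. The difference was 0.48 ± 0.14 (SE, n = 3 per group) with an interval from 0.17 to 0.80, and 0.38 to 0.55 with single arrays left out. Its adjusted p in limma was 0.9997. The gene's other probe set, 1368212_at, read 2329, 2217 and 2053 against 2402, 2214 and 2085, a difference of 0.02 with an interval from -0.18 to 0.23.

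Srsf10, which can act as a repressor when dephosphorylated after heat shock, was read by 5 probe sets. Probe set 1382052_at was at 632, 684 and 681 in NonTG and at 867, 701 and 1021 in hSOD1G93A. The groups did not overlap, although hSOD1G93A B lay close to the NonTG arrays. The difference was 0.36 ± 0.14 (SE, n = 3 per group), and it was 0.23 without hSOD1G93A C. The tested probe sets 1393946_at and 1380269_at differed by 0.09 and by -0.0044, with groups that overlapped. The dim probe set 1392868_at read 13.8, 34.1 and 27.5 in NonTG and 47.1, 72.0 and 95.05 in hSOD1G93A, also without overlap, but 4 of its 6 signals were at or below the dim limit. The fifth, 1386071_at, was dim with groups that overlapped.

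The classical SR proteins that bind exonic enhancers showed small differences. Srsf1 differed by 0.02 and 0.07 over its 2 probe sets, Srsf2 by 0.09 and 0.10, and Srsf9 by 0.14 with an interval from -0.04 to 0.32. Srsf6 gave -0.06, 0.12 and 0.13 over 3 probe sets. The brightest of these, 1372075_at, read 4522, 4390 and 4280 in NonTG and 4472, 4438 and 3745 in hSOD1G93A, with hSOD1G93A C alone below the rest. Srsf5, at -0.10, and Srsf4, at 0.10, had intervals from -0.37 to 0.16 and from -0.33 to 0.54. Srsf7, an SR protein with a zinc knuckle, read 46.4, 112 and 72.3 in NonTG and 90.0, 111 and 116 in hSOD1G93A. Its difference of 0.54 was the highest among the 72 tested probe sets, but the groups overlapped and the interval ran from -0.25 to 1.33. The Srsf3 probe set was dim, at 16.0 to 39.5 over the 6 arrays.

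Of the hnRNP proteins, all 31 probe sets were tested: 22 were higher and 9 lower by their means, with a median of 0.06, which was 0.03 without NonTG C and also 0.03 without hSOD1G93A B. Hnrnpm, which binds GU-rich sequences, read 1829, 1592 and 1651 in NonTG and 1963, 1989 and 2020 in hSOD1G93A. All hSOD1G93A arrays were higher and lay close together. The difference was 0.24 ± 0.09 (SE, n = 3 per group), 0.20 to 0.30 with single arrays left out, at an adjusted p of 0.9997 in limma. Hnrnph3, a member of the G-run binding H/F group, was separated by both of its probe sets. Probe set 1395455_at read 779, 844 and 707 against 882, 1052 and 945, a difference of 0.31 ± 0.11 (SE, n = 3 per group). Probe set 1375019_at read 680, 626 and 574 against 698, 688 and 887, a difference of 0.27 ± 0.13 that was 0.15 without hSOD1G93A C. The related Hnrnph1 and Hnrnpf differed by 0.12 and 0.05, with groups that overlapped for both.

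The A and B groups hold the core hnRNP proteins that coat nascent transcripts. Hnrnpa1 gave 0.07, -0.07 and -0.03 over 3 probe sets. The groups of 1387872_at did not overlap (3325, 3281 and 3068 against 3370, 3361 and 3425), yet its difference of 0.07 had an interval from -0.09 to 0.24. Hnrnpa2b1 had probe sets on both sides of 0. Its probe set 1373540_at read 558, 561 and 611 in NonTG and 505, 563 and 379 in hSOD1G93A, a difference of -0.28 ± 0.16 (SE, n = 3 per group) that was -0.11 without hSOD1G93A C. The other 3 probe sets of the gene gave -0.04, 0.12 and 0.20.

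The remaining hnRNP genes differed little. Hnrnpa3, with 5 probe sets, ranged from -0.03 to 0.11, and Hnrnpab stood at 0.11. Hnrnpa0, an AU-rich element binding protein, read 7955, 9067 and 8027 against 8197, 9184 and 8760. The B array was the highest of both groups, and the difference of 0.06 had an interval from -0.12 to 0.24. Hnrnpc, which blocks U2 auxiliary factor from cryptic sites, read 7338, 6871 and 6726 against 6924, 6062 and 6481. The groups overlapped through hSOD1G93A A, and its difference was -0.11 ± 0.08 (SE, n = 3 per group). Hnrnpu, a nuclear scaffold protein, was lower by its means at all 3 probe sets, from -0.27 to -0.07, and Hnrnpdl was higher at all 3, from 0.08 to 0.20. Hnrnpd, Hnrnpl, Hnrnpll, Hnrnpr and Hnrnpul1 lay between 0.0003 and 0.09.

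The promoters of the genes with a higher probe set at an unadjusted p under 0.05 are shown to compare their CpG content. The sequences are the 100 bases before the annotated start, 5′ to 3′ on the gene's strand, from RefSeq on rat build GRCr8, with each CG dinucleotide in capitals. Srsf11 lies at chr2:249760259-249760358 on the minus strand, Srsf10 has a start at chr5:153372216-153372315 and another at chr5:153376690-153376789, both on the plus strand, Hnrnpm is at chr7:15178872-15178971 on the minus strand and Hnrnph3 at chr20:25619440-25619539 on the plus strand. The promoter of Ptbp3 is not shown.
Srsf11: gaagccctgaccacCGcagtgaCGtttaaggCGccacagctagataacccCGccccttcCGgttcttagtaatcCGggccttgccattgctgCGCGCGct
Srsf10, upstream start: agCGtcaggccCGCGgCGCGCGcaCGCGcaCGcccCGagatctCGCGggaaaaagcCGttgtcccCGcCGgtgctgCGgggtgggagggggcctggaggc
Srsf10, downstream start: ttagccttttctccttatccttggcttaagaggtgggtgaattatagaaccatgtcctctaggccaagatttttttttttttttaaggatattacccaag
Hnrnpm: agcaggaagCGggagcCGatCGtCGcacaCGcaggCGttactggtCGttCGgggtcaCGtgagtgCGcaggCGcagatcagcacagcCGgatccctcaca
Hnrnph3: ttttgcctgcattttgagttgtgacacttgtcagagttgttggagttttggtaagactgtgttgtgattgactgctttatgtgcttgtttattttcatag

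These windows held 9, 16, 0, 12 and 0 CG dinucleotides in that order. Those with 0, at the downstream Srsf10 start and at Hnrnph3, had 36.0% and 38.3% G+C over 300 bases. Whether transcription begins at these annotated starts was not tested, so these windows need not be the promoters in use. In the RefSeq table, 35 of the 42 genes had 40 promoters of 300 bases, 250 before and 50 after the start. Their median G+C content was 63.0%, from 36.0% to 78.3%, against 51.7% over 33469 promoters, and their median number of CG dinucleotides was 27 against 7. The letters GGGCGG, the core of a GC box, were found on either strand in 72.5% of the members' promoters and 33.1% of all. The letters CCAAT were found in 65% and 37.5%, and TATAAA in 17.5% and 14.2%. A match is a description and not a bound site.

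All 7 tested Mbnl probe sets, 3 of Mbnl1 and 4 of Mbnl2, had a lower mean in hSOD1G93A, with a median of -0.14. Mbnl proteins promote adult splicing patterns and are sequestered by repeat RNA in myotonic dystrophy. The 3 Mbnl1 differences ran from -0.15 to -0.14, and 1372079_at read 2496, 3219 and 3171 in NonTG and 3024, 2279 and 2691 in hSOD1G93A, which overlap. The 4 Mbnl2 differences ran from -0.14 to -0.01. Only Mbnl2 1389301_at was separated, at 5321, 5547 and 5916 in NonTG and 5317, 4817 and 5136 in hSOD1G93A, and there the A arrays were 5321 and 5317. Its difference was -0.14 ± 0.08 (SE, n = 3 per group), with an interval from -0.31 to 0.03.

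The Mbnl probe sets varied with a single array. All 7 had their lowest signal on hSOD1G93A B, as had 13 of 72 members (18.1%) and 20% of all probe sets. Without that array the family's median difference was -0.0014, and it was -0.03 without NonTG C. On the same array, 9 of 13 tested probe sets of fibroblast and meningeal markers were also lowest. Between the groups that list was mixed: 10 of the 13 probe sets were lower and 3 higher in hSOD1G93A by their means, the 3 being Dcn at 2.52, Aldh1a2 at 1.15 and Lum at 1.08. Of the 12 marker genes, 10 were tested and Slc6a13 and Vtn were dim. With dim genes included, the summed signal of the brightest probe set per gene ranged from 72140 to 76790 over the NonTG arrays. Over the hSOD1G93A arrays it ranged from 54180 to 76360. The part of these cells in the Mbnl and Ptbp3 values on hSOD1G93A B was not tested.

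The Celf proteins, which bind GU-rich elements and often oppose Mbnl, were split by gene. Celf1 was lower by its means at 4 of 5 probe sets, from -0.15 to 0.01. The brightest, 1388704_at, read 1887, 1661 and 1518 in NonTG and 1757, 1645 and 1562 in hSOD1G93A, with the hSOD1G93A arrays inside the NonTG range. Its probe set 1393568_at was separated, at 413, 433 and 396 in NonTG and 395, 359 and 374 in hSOD1G93A. The NonTG C and hSOD1G93A A arrays were nearly level, and the difference was -0.14 ± 0.12 (SE, n = 3 per group). Celf2 was higher at all 4 probe sets, from 0.15 to 0.24, and all 4 had their highest signal on hSOD1G93A C, as had 14 of 72 members (19.4%) and 15.4% of all probe sets. For example, 1389867_at read 1532, 1433 and 1472 in NonTG and 1513, 1613 and 2178 in hSOD1G93A. Without hSOD1G93A C the 4 Celf2 differences were 0.08, -0.07, 0.01 and 0.08. Celf5 differed by 0.16 with an interval from -0.54 to 0.87. The family's median of 0.08 was -0.0002 without NonTG C and 0.01 without hSOD1G93A C.

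**Figure D3:**
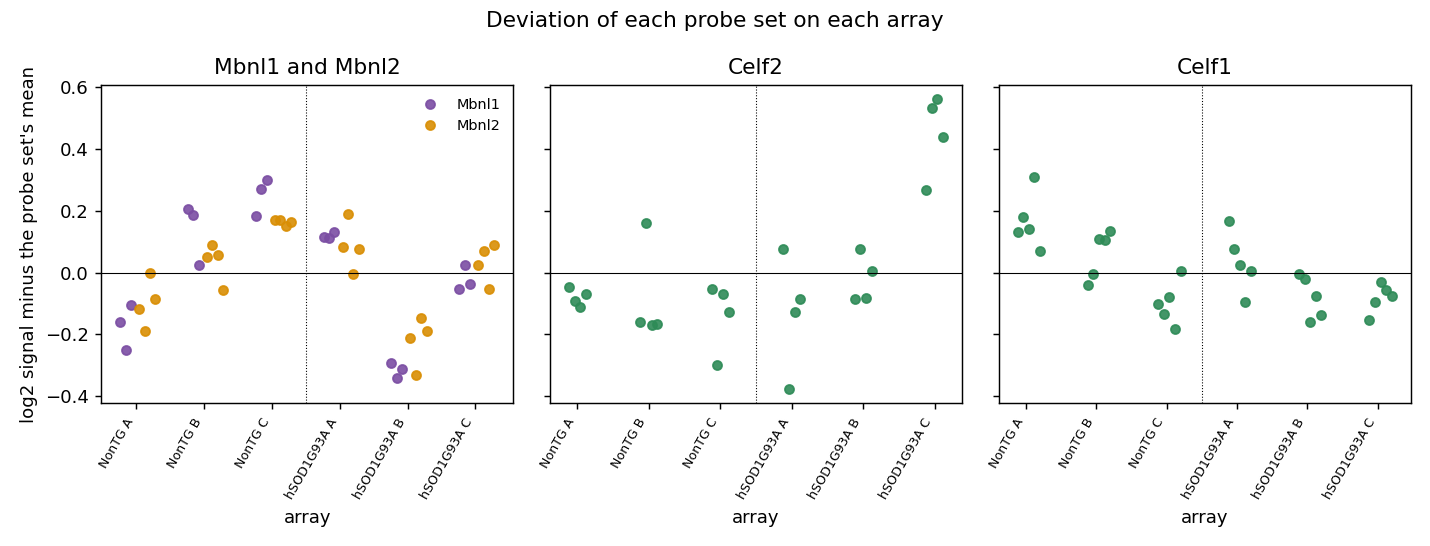
Log2 signal of each tested probe set minus its mean over the 6 arrays, for Mbnl1 and Mbnl2, Celf2 and Celf1, with 1 point per probe set and a dotted line between the groups. All 7 Mbnl probe sets are lowest on hSOD1G93A B and all 4 Celf2 probe sets are highest on hSOD1G93A C.

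The Rbfox proteins, which bind GCAUG, are mostly neuronal, and 6 of their 10 probe sets were dim. Rbfox2, which is also found outside neurons, read 561, 472 and 554 in NonTG and 577, 477 and 527 in hSOD1G93A. The groups overlapped, and the difference of -0.01 had an interval from -0.30 to 0.28. Of 6 Rbfox1 probe sets, 2 were tested, with differences of -0.05 and -0.23 and groups that overlapped. Rbfox3, known as the neuronal antigen NeuN, was tested by 1377095_at, with a difference of 0.22 and an interval from -0.53 to 0.97. The family's median of -0.03 was 0.06 without hSOD1G93A B and 0.01 without NonTG B.

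The dim Rbfox3 probe set 1376460_at read 62.3, 32.6 and 22.0 in NonTG and 75.9, 143 and 121 in hSOD1G93A. The groups did not overlap, but all 3 NonTG signals were below the dim limit. In the fit without the dim limit its difference was 1.62 ± 0.49 (SE, n = 3 per group) at an adjusted p of 0.9998 in limma. Of 16 neuron markers, 9 were above the dim limit, by 12 probe sets of which 5 were higher and 7 lower by their means, with a median of -0.04. The brightest were Gad1 (mean log2 signals of 11.38 for NonTG and 11.35 for hSOD1G93A), Stmn2 (10.8 and 10.99) and Map2 (10.66 and 10.78). Snap25, Slc17a6, Gad2, Dcx, Chat, Nefh and Grin1 were dim. With dim genes included, the summed signal of the brightest probe set per neuron marker ranged from 7691 to 9248 in NonTG and from 7745 to 9172 in hSOD1G93A. The part of neurons in the Rbfox3 signal was not tested.

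**Figure D4:**
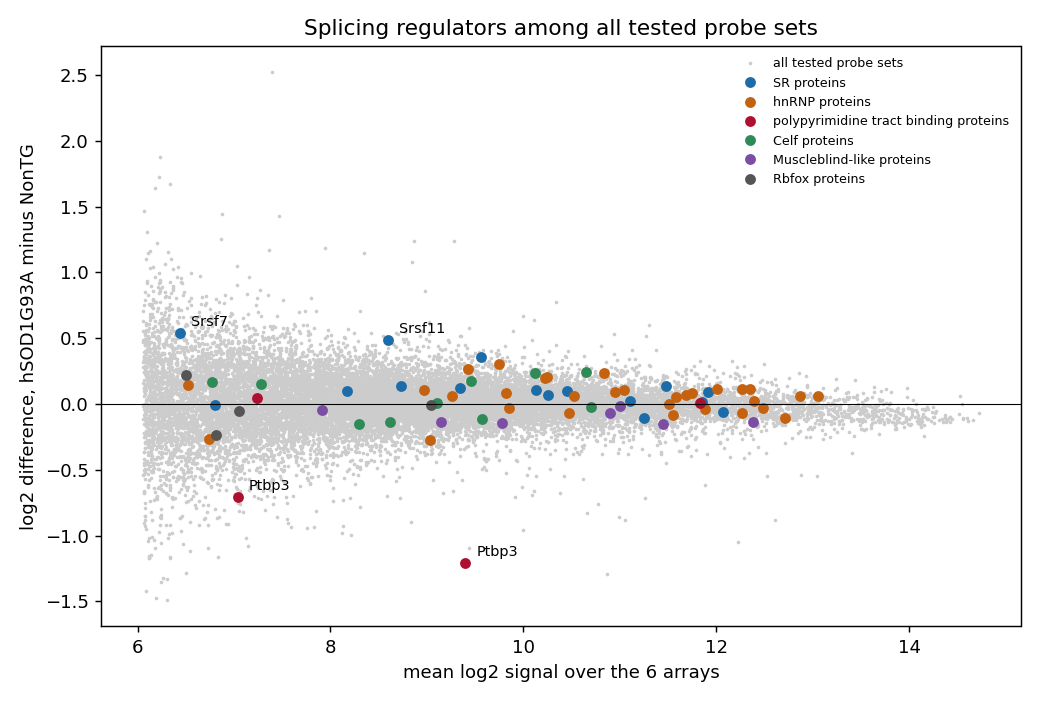
Log2 difference between hSOD1G93A and NonTG against the mean log2 signal over the 6 arrays for all 18625 tested probe sets (grey) and the 72 members (coloured by family). Most members lie near 0, and Ptbp3 1382005_at, at -1.21, lies at the lower edge of the probe sets of like brightness.

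Probe sets of the same gene were then set against each other, to see whether they differed in their change. Which transcripts each probe set reads could not be placed, so a gap between probe sets need not be one between transcripts. For each tested probe set the mean log2 signal of the gene's other tested probe sets was subtracted on every array, and limma was fitted on 7230 such probe sets, 52 of them members. None passed at an adjusted p of 0.05, nor did any other probe set (0%). At an unadjusted p under 0.05 there were 4 members (7.69%), against 4.22% of all. These were the 2 probe sets of Srsf11 and the 2 of Ptbp3, which mirror each other in a gene with 2 probe sets.

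For Srsf11, 1382056_at minus 1368212_at was -2.75, -2.64 and -2.86 in NonTG and -2.33, -2.36 and -2.17 in hSOD1G93A. The groups did not overlap. The probe sets' differences were thus 0.46 ± 0.12 apart (SE, n = 3 per group), with an interval from 0.17 to 0.75 and an adjusted p of 0.9995 in limma, 0.891 to 0.99994 under the alternatives. For Ptbp3, 1382005_at minus 1387432_at was 2.58, 2.73 and 2.52 in NonTG and 2.25, 1.97 and 2.10 in hSOD1G93A, also without overlap. That was a difference of -0.50 ± 0.13 (SE, n = 3 per group), with an interval from -0.81 to -0.20 and an adjusted p of 0.9995 in limma, 0.869 to 0.99994 under the alternatives. The groups did not overlap for 5 members (9.62%), against 8.53% of all, and the fifth was Hnrnpa2b1 1373540_at at -0.37 ± 0.17. Of 17 genes with several tested probe sets, 6 had all of them higher by their means, 5 all lower and 6 on both sides.

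The array letters A, B and C were also compared, since arrays of the same letter deviated together. The difference had the same sign within all 3 letters for 22 of 72 members (30.6%), against 25.8% of all probe sets, and 15 of the 22 were higher in hSOD1G93A. Both Ptbp3 probe sets, Srsf11 1382056_at, Srsf10 1382052_at, Hnrnpm and both Hnrnph3 probe sets were among them. Where the groups do not overlap, the differences within the 3 letters must share a sign. Of the probe sets named, only the Ptbp3 probe set of lower signal had groups that overlapped. For the others, being among the 22 follows from their separation and is no further support. The highest signal fell on an A array for 30 of 72 members (41.7%), 10 of them among the 16 SR probe sets, against 30.2% of all. No member passed limma's test of the letter, where the smallest adjusted p was 0.181, while 1.05% of all probe sets passed. At an unadjusted p under 0.05 in that test there were 9 members (12.5%), fewer than the 15.6% of all probe sets.

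Other genes of the splicing pathway gave no call either. Of 54 SR-related proteins and other splicing regulators, 42 were tested by 86 probe sets, of which 45 were higher and 41 lower by their means, with a median of 0.01. Those of smallest p were Luc7l3 1377694_at at -0.49 ± 0.23, Luc7l at 0.18 ± 0.10 and Syncrip 1390489_at at 0.21 ± 0.12 (SE, n = 3 per group). Luc7l and Luc7l3 belong to the U1-associated Luc7 family, and another Luc7l3 probe set differed by 0.03. A list of SR protein kinases, the phosphatase subunit Ppp1r8 and the SR protein import receptor Tnpo3 had 12 tested probe sets. Of these, 2 were higher and 10 lower by their means, with a median of -0.07. Tnpo3 was among the 2 higher, at 0.16. The kinases Clk3, Clk2 and Srpk1 1371714_at differed by -0.17, -0.18 and -0.13.

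The core spliceosome, with 98 tested probe sets of 78 genes, had 43 higher and 55 lower by their means and a median of -0.01. Its smallest p was that of Sf3b1, the branch point recognition factor, at 3898, 3423 and 3557 in NonTG and 3367, 3041 and 3103 in hSOD1G93A. These groups did not overlap, and the difference was -0.19 ± 0.08 (SE, n = 3 per group). Prpf6, of the tri-snRNP, was at -0.23 ± 0.11 and Snrpd1, a ring protein of the snRNPs, at 0.20 ± 0.10. The adjusted p in limma was 0.9997 for each of these genes, and at an unadjusted p under 0.05 there was 1 probe set in the core spliceosome list and 0 in the other lists of splicing genes.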

How the data were processed

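Expression was measured in 6 RNA samples on 6 arrays, grouped by their titles. The deposited values are intensities from MAS5 and GCOS 1.4, software that the submitters' processing notes name for the authors' work. GC-RMA and log values are mentioned in the design text, but the table is linear, and the mean after trimming 2% at each end was 500.16 to 500.17 on every array. Median signals were 129.29 to 136.75. Of 31099 probe sets, 57 controls were left out. Symbols came from the platform annotation: 20826 probe sets had 1, 436 several and 9780 none. Of the several-symbol probe sets, 4 name a member gene and were left out. All 42 member symbols matched the RefSeq gene table by Entrez identifier.

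Signals were put on the log2 scale without a pseudocount or renormalization. limma 3.58.1 in R 4.3.3 (lmFit, eBayes with an intensity trend, two-sided) was fitted on the probe sets above the dim limit, with Benjamini-Hochberg adjustment, and was tested on simulated data. Same-gene comparisons used no trend. Precision is limited by the number of arrays: the median SE was 0.16 over all probe sets and 0.12 over members, and a permutation test of 3 against 3 arrays cannot go below 0.1. Values per array were given for probe sets without overlap, the 6 of smallest p in each direction and the brightest of each family, with others as ranges, and of other lists the 3 genes of smallest p.

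Deviations from the group mean correlated at 0.30, 0.25 and 0.20 between arrays of the same letter and at -0.28 to 0.02 between others. The letter was therefore used as a block in an alternative fit, although no label says what a letter marks. The main fit did not pair the arrays. The members and gene lists were chosen with earlier results of these data known. Alternatives were the letter as a block, no or a stricter dim limit, quantile normalization, a pseudocount of 23.05, no trend, array weights and leaving out each array. The test of the letter was added after seeing the data.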

Additional observations from a re-analysis of the deposited data

How the results depend on the processing

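No member passed the threshold under any of the 13 alternatives, where every adjusted p was at least 0.151. The 14 probe sets without overlap or among the 6 of smallest p in a direction kept their direction in 181 of 181 values. For those without overlap, leaving out an array cannot reverse the direction. The letter block, the dim limits and the trend setting leave a difference unchanged. The count was thus largely fixed by how these probe sets were picked and is no support for them. Of all 72 tested members, 36 kept their sign with each single array left out, and those that did not include Celf2 1387880_at, Srsf6 1372075_at and Hnrnpa1 1372693_at. With the letter as a replicate block the median difference over the members was 0.05, as without it. Each group has every letter, so this block cannot change a difference, only its SE. In that fit 7 members (9.72%) had an unadjusted p under 0.05, against 5.85% of all probe sets. The smallest adjusted p of limma was 0.151 (Ptbp3 1382005_at), and the block changed no call. The median over the Celf proteins was 0.0063 with no dim limit and -0.0096 with the limit at the 60th percentile, which also moved the Ptbp median to -0.60, with fewer probe sets tested. With single arrays left out, the Celf median lay between -0.000192 and 0.082 and the members' median between 0.000162 and 0.0621. The number of members without overlap was then 11 to 21 of 72, and the share over all probe sets was 14.4% to 22.6%. The number of members at an unadjusted p under 0.05 was 2 to 7 of 72 with single arrays left out, and 9 of 72 with array weights. The shares over all probe sets were 1.83% to 6.35% and 4.57%. In the same-gene comparison 3 probe sets of the whole array passed with no dim limit and 0 under every other setting, none of them a member. Dim probe sets, including those of Srsf3, Celf3, Celf4 and Mbnl3, were left out of the main fit. With no dim limit none of the dim members passed the threshold.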
